A study of Rattus norvegicus with 4 samples.

Results

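The genes described here encode the proteins of the cytosolic ribosome, the particle that translates messenger RNA. They were taken as all probe sets whose 1 annotated symbol begins with Rpl or Rps followed by the number or letter of a ribosomal protein, without the S6 kinases (Rps6k). This gave 50 probe sets of 44 genes, 30 of the large and 14 of the small subunit, out of 10412 named genes. For each gene the brightest of its probe sets was used, a choice that rests on the signals and favours high levels. Of 80 canonical ribosomal proteins, 40 were among the 44 genes, 30 appeared only on probe sets that carry several symbols, and 10 had neither.

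The animals were male rats of the Sprague-Dawley strain, 10 to 12 weeks old, kept on standard feed with no treatment. Their 4 livers, snap-frozen, form 1 group of controls, so no groups were compared. Of each, 1.5 µg of total RNA was amplified and 15 µg of labelled cRNA hybridised to 1 Affymetrix array, and a rat cannot be told apart from its array. All values are log2 signals, and a signal depends on the probes, so signals of different genes are not relative amounts of transcript. Whole liver holds several cell types, and fewer cells of a type cannot be told apart from less RNA per cell.

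Most ribosomal proteins are needed in equal numbers, and most are assembled with ribosomal RNA in the nucleolus. Hepatocytes, which secrete most plasma proteins, depend on a large ribosome pool. The messenger RNAs of ribosomal proteins typically begin with a terminal oligopyrimidine tract, a C followed by a run of pyrimidines. Through this tract mTOR signalling controls their translation as a group. Growth and nutrient supply are known to set ribosome production in liver.

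The starts of 8 of these genes are shown to let the pyrimidine run of the family be seen, with genes that hold a long run and genes that do not. They are the 3 genes with the largest spread between rats (Rplp0, Rpl27a and Rps24) and 5 genes whose roles are described further on. Each line gives the RefSeq sequence of build GRCr8 from 30 bases before to 30 bases after the start of transcription as annotated, and capitals mark the longest pyrimidine run.
Rplp0 (chr12:46718361-46718420, minus strand): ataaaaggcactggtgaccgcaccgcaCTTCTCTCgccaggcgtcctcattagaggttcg
Rpl27a (chr1:172974543-172974602, plus strand): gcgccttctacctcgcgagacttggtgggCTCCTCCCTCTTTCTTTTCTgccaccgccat
Rps24 (chr16:96487-96546, plus strand): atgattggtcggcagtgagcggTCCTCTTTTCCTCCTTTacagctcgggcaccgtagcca
Rps6 (chr5:106420511-106420570, minus strand): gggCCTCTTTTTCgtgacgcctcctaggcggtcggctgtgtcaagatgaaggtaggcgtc
Rpl3 (chr7:113507961-113508020, minus strand): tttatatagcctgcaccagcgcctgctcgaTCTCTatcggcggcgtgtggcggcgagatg
Rpl41 (chr7:1563468-1563527, minus strand): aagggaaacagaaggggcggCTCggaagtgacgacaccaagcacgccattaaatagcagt
Rpl11 (chr5:153560773-153560832, minus strand): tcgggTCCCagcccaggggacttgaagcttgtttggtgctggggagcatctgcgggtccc
Rpsa (chr8:128728849-128728908, plus strand): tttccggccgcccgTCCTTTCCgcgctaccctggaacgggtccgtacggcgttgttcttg

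A RefSeq start was matched for 39 of the 44 genes, 37 by gene number and 2 by symbol. Within 30 bases of it, 29 of these 39 genes (74.4%) held a run of at least 8 pyrimidines on the coding strand, against 22.6% of 19005 protein-coding genes. The longest run had a median of 10 bases in the ribosomal genes and 5 in all protein-coding genes, and it reached 24 bases in Rpl7a. A start at C followed by 4 pyrimidines was found in 11 of 39 genes, or 28.2%, against 2.44% of all protein-coding genes. The start of Rps6 shows the limit of this count, since its run of 10 pyrimidines lies upstream of the annotated first base. Rpl3, Rpl11 and Rpl41 held no run of 8 in this window, which says only that these letters are not there.

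**Figure D1:**
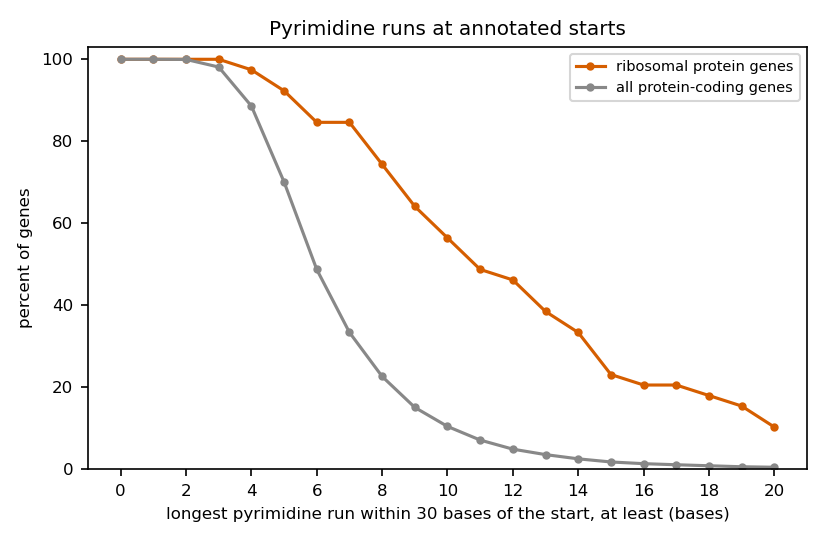
Percent of genes (vertical axis) whose longest pyrimidine run within 30 bases of the annotated start has at least the length on the horizontal axis, for 39 ribosomal protein genes and 19005 protein-coding genes. At 8 bases the lines stand at 74.4% and 22.6%, and at 10 bases at 56.4% and 10.4%.

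Other motifs were counted on both strands of the 300 bases from 250 before to 50 after the start, and matches are letters only, not sites. The GC box GGGCGG was present in 24 of 39 ribosomal genes (61.5%) and in 43.1% of all protein-coding genes. CCGGAAG, the core bound by ETS factors, was present in 9 of 39 (23.1%) and in 11.2% of all. AAGATGGC, the core of the YY1 motif, was present in 4 of 39 (10.3%) and in 3.92% of all. The TATA box TATAAA was present in 6 of 39 (15.4%) and in 13.1% of all, and the E box CACGTG in 3 of 39 (7.69%) and in 7.27% of all. None of these motifs contains another, and a match may overlap a pyrimidine run counted above.

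Most ribosomal protein genes gave bright signals. Their means over the 4 livers ran from 7.40 to 12.34 with a median of 11.31, against a median of 8.26 over all named genes. Of the 44 genes, 38 lay in the brightest 10% of named genes. The background level, the 95th percentile of 96 probe sets for genes of other tissues, was 8.93. Above it lay 40 of the 44 genes, against a background of 23.1% of all named genes.

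Of the large subunit, Rpl7a had the highest mean, 12.34 ± 0.030 (SD, n = 4), with 12.36, 12.38, 12.31 and 12.33 in replicates 1 to 4. Among the brightest of the small subunit was Rps23, a protein of the decoding centre, at 12.15, 12.23, 12.26 and 12.20. For Rpl7a the 4 rats lay within 0.067 of each other and for Rps23 within 0.10. Rps29, a small zinc-binding protein, was at 12.15, 12.30, 12.37 and 12.39, with replicate 1 apart from the others. Rpl41, one of the shortest proteins of the cell and a bridge between the subunits, was at 11.83 in replicates 1, 2 and 3 and at 11.86 in replicate 4.

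The 4 genes below the background level were 3 paralogues and Rpl30, a protein of the large subunit. Rpl3l, the form of Rpl3 found in skeletal muscle and heart, was at 7.40 on all 4 arrays, while Rpl3 itself averaged 11.77. Rps27l, a paralogue of Rps27 that p53 is known to induce, averaged 8.62 ± 0.073 (SD, n = 4), and Rps4y2, of the Rps4 family, 8.03 ± 0.035 (SD, n = 4). Rpl30 averaged 7.46 ± 0.035 (SD, n = 4) on the 1 probe set that carries its symbol alone. Just above the level were Rpl39, which lines the exit tunnel, at 9.05, and Rpl7l1, a paralogue of Rpl7 known for a part in ribosome assembly, at 9.41. The next gene up was Rpl23a at 10.37, so that 38 genes fell between 10.37 and 12.34.

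**Figure D2:**
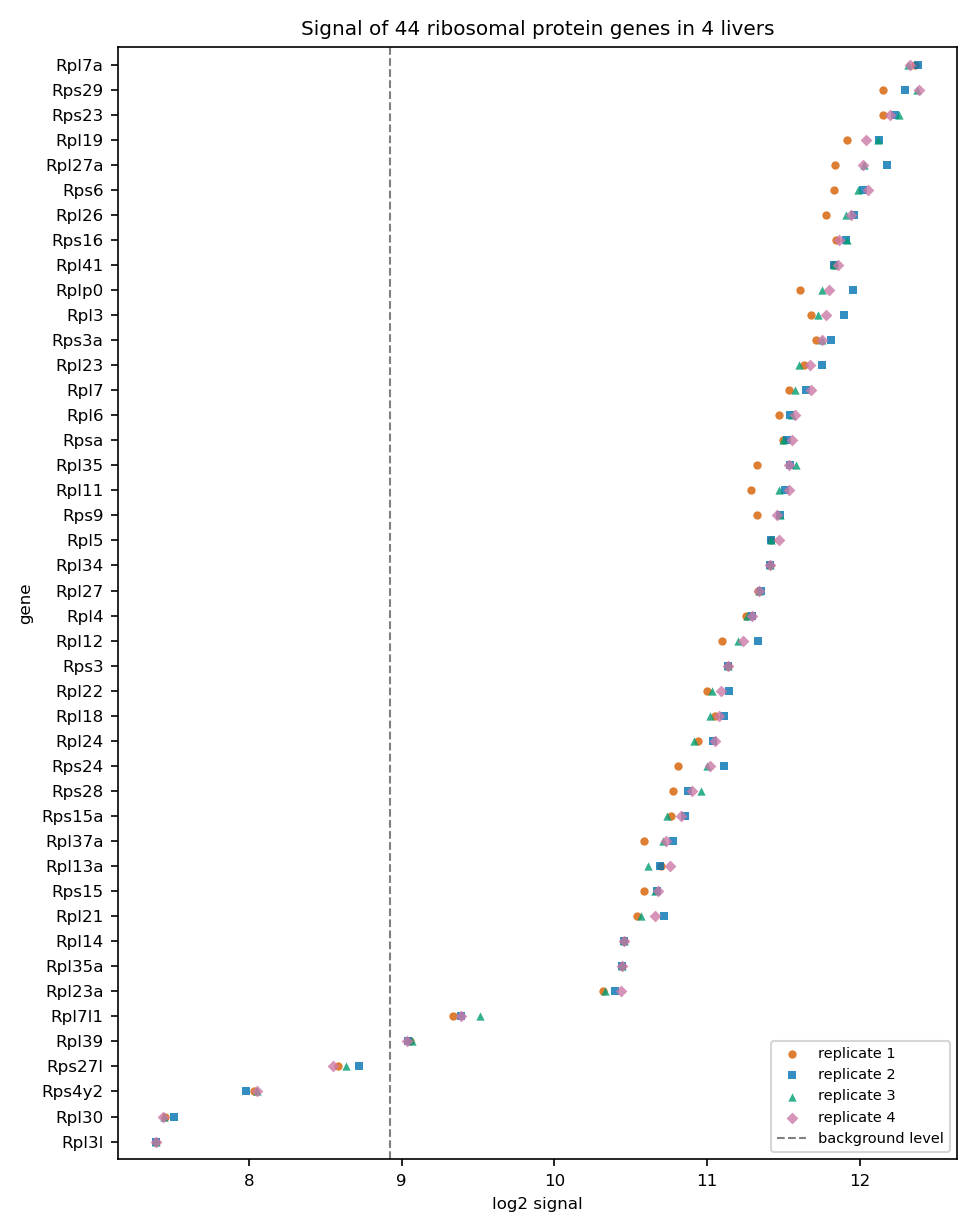
Log2 signal (horizontal axis) of each of the 44 ribosomal protein genes (vertical axis, highest mean at the top) in each of the 4 livers, 1 symbol per rat, with the background level of 8.93 as a dashed line. All but 4 genes lie above the line, and replicate 1 is the leftmost symbol for many genes, such as Rplp0 and Rpl35.

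Of the 44 genes, 5 had more than 1 probe set, and these differed widely in signal. The other probe set of Rps24 had a mean of 7.14 against 10.99, that of Rpl14 7.75 against 10.46, that of Rpl7 8.41 against 11.61, and that of Rpl7l1 8.62 against 9.41. Rpsa, the laminin receptor of the small subunit, had 3 probe sets with means of 11.52, 10.42 and 9.70. Rpl30 had no other probe set of its own against which its low signal could be checked.

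The median SD of the ribosomal protein genes over the 4 livers was 0.058 log2 units, against 0.022 over all named genes, many of which were flat. Flat genes, whose 4 values were equal to within 0.001, were 5 of the 44 (Rpl3l, Rpl14, Rpl34, Rpl35a and Rps3), against a background of 42.4% of named genes. Their SD does not measure the animals. In the brightest 10%, flat genes were 10.5% of the ribosomal genes and 16.1% of genes outside the family. The 39 ribosomal genes that were not flat had a median SD of 0.065, against 0.049 over all named genes that were not flat. Each of the 39 was also given the median SD of genes outside the family, not flat, in its 10% band of signal. The median of these band values was 0.088, which is the value of the brightest 10%, where 34 of the 39 lay. An SD over 0.2 was found in 0 of the 44 genes, against 2.98% of all named genes and 9.7% of those above the background level. An SD over 0.1 was found in 6 of them (13.6%), against 9.3% of all named genes and 26% of those above the background level. With flat genes included, the 40 genes above the background level had a median SD of 0.062, against 0.049 over all named genes above it. Taken by band in the same way, flat genes included, genes outside the family had 0.070, against 0.058 for the 44 genes. In the brightest 10% alone, the ribosomal genes had 0.065 without flat genes and 0.062 with them. The genes outside the family had 0.088 and 0.070 there. The order against other genes thus depended on the genes set beside them. By band and in the brightest 10%, the family had the lower median, with and without flat genes. Leaving out replicate 1 lowered the median SD of the 44 genes to 0.035.

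**Figure D3:**
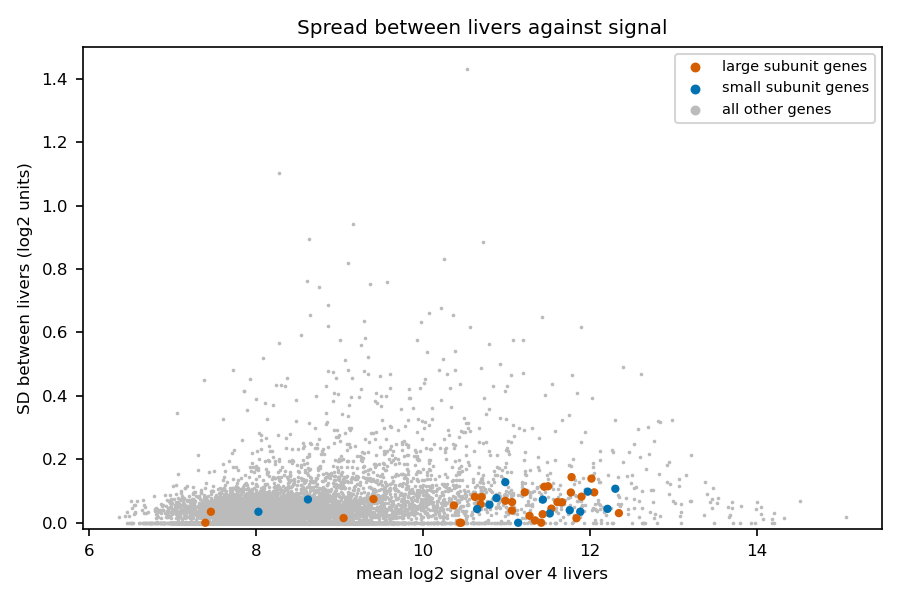
SD between the 4 livers (vertical axis, log2 units) against mean log2 signal (horizontal axis) for ribosomal protein genes of the large and small subunit and for all other named genes. The largest SD of a ribosomal protein gene is 0.14, that of Rplp0, while other genes reach 1.43.

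The 6 genes with an SD over 0.1 were Rplp0, Rpl27a, Rps24, Rpl35, Rpl11 and Rps29. Rplp0, the base of the stalk that recruits elongation factors, had signals of 11.61, 11.96, 11.75 and 11.80 in replicates 1 to 4, so that replicate 1 was lowest and replicate 2 highest. Rpl27a had 11.84, 12.18, 12.03 and 12.02, with the same order at its ends. Rps24, whose human gene is mutated in Diamond-Blackfan anaemia, had 10.81, 11.11, 11.00 and 11.02. These 3 genes varied most of the 44, and in them replicate 1 stood at 88.3% to 88.8% of the geometric mean of the 4 livers. No rat has a second array, so these differences have no replicate check.

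The same direction ran through the family. Of the 39 genes that were not flat, 28 were lowest in replicate 1, against a background of 26.8% of all genes that were not flat. They comprised 18 of 26 genes of the large and 10 of 13 genes of the small subunit. In the other rats 2 of the 39 were lowest in replicate 2 (background 25.8%), 6 in replicate 3 (22.1%) and 3 in replicate 4 (25.3%). None of the 39 was highest in replicate 1 (background 26.8%), 18 were highest in replicate 2 (24.1%), 8 in replicate 3 (28.5%) and 13 in replicate 4 (20.7%). Below their own mean in replicate 1 were 35 of the 39, against a background of 49.8%. Many of these steps were small, and 15 of the 39 lay more than 0.05 log2 units below the next rat in replicate 1 (background 10.2%). In replicate 2 this held for 1 gene (background 9.08%), in replicate 3 for 1 (7.21%) and in replicate 4 for 0 (7.35%).

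With each array centred on the brightest 10% of other genes, a setting chosen after seeing the data, 20 of the 39 were lowest in replicate 1, against 21.3% of other genes.

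In size the difference was a few percent. The median deviation of the 44 genes from their means was -0.05 log2 units in replicate 1, which is 96.5% of the mean on the linear scale. It was 0.04 in replicate 2, 0.00 in replicate 3 and 0.02 in replicate 4. These medians include flat and dim genes. The 34 ribosomal genes that were not flat in the brightest 10% had medians of -0.066, 0.045, -0.004 and 0.027 in replicates 1 to 4. Genes outside the family that were not flat in the brightest 10% had medians of 0.00, -0.03, 0.03 and 0.01. With each array centred on the brightest 10% of other genes, the family's median was -0.05 in replicate 1, 0.083 in replicate 2, -0.044 in replicate 3 and 0.02 in replicate 4. Among the brightest 10% of genes that were not flat, 27 of 34 ribosomal genes were lowest in replicate 1 (background 31.7% of all such genes), 15 of them by over 0.05 (17%). Lowest in replicate 2 was 1 of the 34 (35.5%), and highest there were 16 (16.9%). Of the 842 bright genes outside the family, 29.8% were lowest in replicate 1 and 36.8% in replicate 2, and 15.7% were highest in replicate 2. No test of the family as a whole was made, since its genes share the same 4 arrays.

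**Figure D4:**
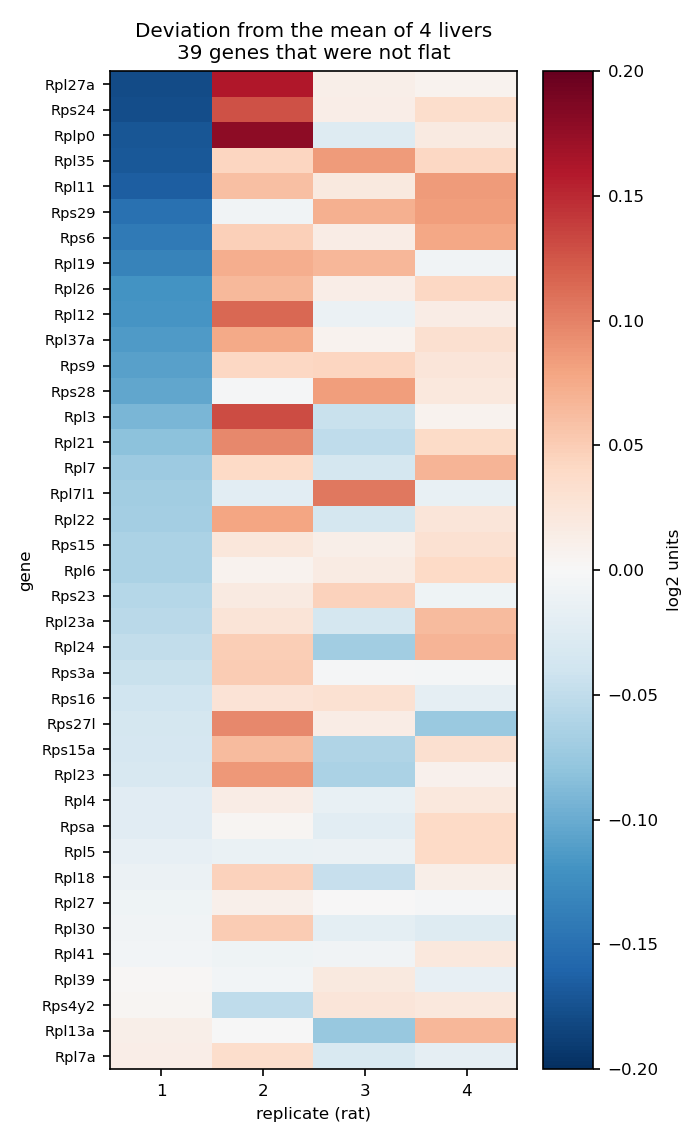
Deviation of each of the 39 ribosomal protein genes that were not flat (vertical axis, lowest in replicate 1 at the top) from its mean over the 4 livers, in each rat (horizontal axis), coloured in log2 units with blue below and red above the mean. The replicate 1 column is blue for 35 of 39 genes, and replicate 2 holds the deepest red, that of Rplp0.

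The genes were next grouped by their place in the ribosome, in groups of 2 to 7 genes that were not tested against each other. These groups were chosen with earlier results of these data known. In the family as a whole 28 of 39 genes were lowest in replicate 1, against a background of 26.8%, so most groups share this trait. At the stalk, Rpl12, which lies at its base, had 11.10, 11.33, 11.21 and 11.23 in replicates 1 to 4, the same order as Rplp0. Rplp1 and Rplp2, which form the stalk's tips, were not among the 44 genes. At the tunnel exit, where the signal recognition particle and the translocon dock, Rpl19, Rpl23a, Rpl26 and Rpl35 were all lowest in replicate 1, with a median deviation of -0.13. Rpl23a, a docking site of the signal recognition particle, had 10.32, 10.40, 10.33 and 10.43, the smallest step of the 4. Rpl35 had 11.33, 11.54, 11.58 and 11.54, and Rpl26, which is modified by UFM1 at the endoplasmic reticulum, had 11.78, 11.96, 11.91 and 11.94. In both, replicates 2, 3 and 4 lay within 0.1 of each other and replicate 1 lay below them all. Rpl39, which lines the exit tunnel but was grouped with the peptidyl transferase centre, was lowest in replicate 4.

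Rpl5 and Rpl11 enter the ribosome together with 5S RNA and, when unassembled, bind the p53 regulator Mdm2. Rpl11 had 11.29, 11.51, 11.47 and 11.54 in replicates 1 to 4. Rpl5 had 11.42, 11.42, 11.42 and 11.47, with replicate 1 lowest by less than 0.01, where its partner was lowest by a wide margin. Near the peptidyl transferase centre and the exit tunnel, Rpl3 had 11.68, 11.90, 11.73 and 11.78, whereas Rpl4, at 11.25, 11.29, 11.26 and 11.30, and Rpl39 stayed within 0.05. Of the bridge proteins between the subunits, Rpl19 had 11.92, 12.12, 12.12 and 12.04 and was lowest in replicate 1. Rpl23, at 11.63, 11.75, 11.60 and 11.67, and Rpl24, at 10.94, 11.04, 10.92 and 11.05, were lowest in replicate 3 with replicate 1 close above. Rpl41 was lowest in replicate 2.

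Of 7 proteins of the small subunit that line the channel for messenger RNA or the decoding centre, Rps3 was flat. The other 6 (Rps3a, Rps9, Rps15, Rps16, Rps23 and Rps28) were lowest in replicate 1, with a median deviation of -0.06 over the 7. Lowest there were also 28 of the 39 genes of the whole family, against a background of 26.8%. Rps9, at the entry of the channel, had 11.33, 11.48, 11.48 and 11.46, and Rps28, at its exit, had 10.78, 10.88, 10.96 and 10.90. Rps3a had 11.71, 11.81, 11.75 and 11.75, Rps15 had 10.59, 10.67, 10.66 and 10.68, and Rps16 had 11.84, 11.91, 11.91 and 11.86. In these 3 genes the 4 rats lay within 0.1 of each other. Rps6, the main substrate of the S6 kinases, had 11.83, 12.02, 11.99 and 12.05, with replicate 1 again below the other 3. Rpsa, at 11.50, 11.52, 11.50 and 11.56, was equally low in replicates 1 and 3 to within 0.001. It is counted among the 28 genes lowest in replicate 1.

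Of the remaining genes 6 of the canonical set were lowest in replicate 1. Rpl37a, a zinc-binding protein, had 10.59, 10.78, 10.71 and 10.73 in replicates 1 to 4, with replicate 1 apart. Rpl21 had 10.54, 10.72, 10.57 and 10.66, and Rpl22 had 11.00, 11.15, 11.03 and 11.09. In these 2 genes replicate 3 lay close to replicate 1. Rpl7 had 11.54, 11.65, 11.57 and 11.68, Rpl6 had 11.47, 11.54, 11.55 and 11.58, and Rpl27, with the smallest SD of all genes that were not flat in the family, had 11.33, 11.35, 11.34 and 11.34. The paralogue Rpl7l1 had 9.34, 9.39, 9.51 and 9.39, high in replicate 3.

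Genes lowest in another rat included Rpl13a, known for its part in a complex that silences inflammatory messenger RNAs in human cells, at 10.70, 10.69, 10.61 and 10.76. Rpl18 had 11.05, 11.11, 11.02 and 11.08, and Rps15a had 10.76, 10.86, 10.74 and 10.83. These 3 genes and Rpl7a were lowest in replicate 3. Rps27l had 8.59, 8.72, 8.64 and 8.55 and Rpl30 had 7.46, 7.51, 7.44 and 7.44, both highest in replicate 2. Rps4y2 had 8.03, 7.98, 8.05 and 8.05 and was lowest in replicate 2, but these last 3 lay below the background level. The flat genes above it were Rpl34 at 11.41, Rps3 at 11.14, Rpl14 at 10.46 and Rpl35a at 10.44 on every array.

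The rule left out 34 probe sets that carry several symbols with a ribosomal protein gene among them. Of these, 6 mix ribosomal and other symbols and are not described here. In the other 28 all symbols are of ribosomal protein genes, and 27 of the 28 lay above the background level. The 28 were measured on the same 4 arrays. Of the 22 that were not flat, 13 were lowest in replicate 1 (background 26.8% of named genes that were not flat), 12 highest in replicate 2 (24.1%) and 0 highest in replicate 1 (26.8%). Below their own mean in replicate 1 were 21 of the 22 (49.8%). Their median deviations were -0.03, 0.03, 0.00 and 0.02 in replicates 1 to 4. Their signals cannot be assigned to 1 gene.

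**Figure D5:**
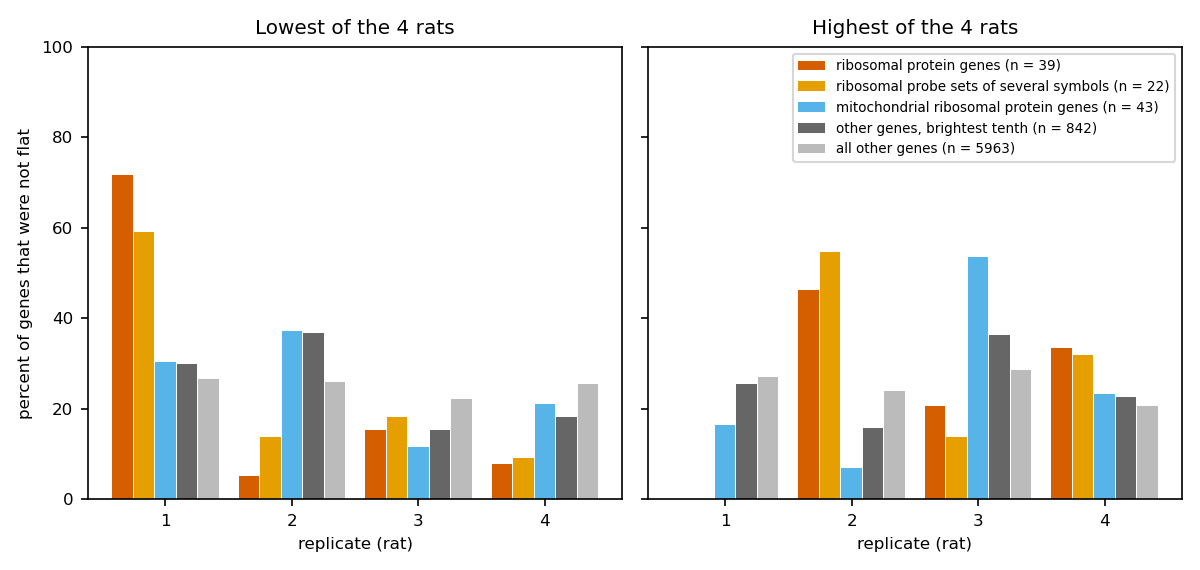
Percent of genes or probe sets that were not flat (vertical axis) with their lowest (left) or highest (right) signal in each rat (horizontal axis), for 5 classes named in the legend with their numbers. Ribosomal protein genes were lowest in replicate 1 in 71.8% of cases, ribosomal probe sets of several symbols in 59.1%, and the other 3 classes in 26.5% to 30.2%.

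A gene was tested for a difference between arrays that its 2 brightest probe sets share, by limma's moderated F test over all 613 genes with 2 such sets that were not flat. The probe sets serve as repeats, so its p-values cover the spread between probe sets only, and a difference between arrays cannot be told apart from one between animals. It called 49 genes at an adjusted p of 0.05, or 7.99%, but 22 without replicate 3 and 0 of 1870 when flat genes were included. Rpsa was the 1 ribosomal gene that could be tested, and it did not pass (limma, adjusted p = 0.845). Its second probe set had 10.43, 10.38, 10.40 and 10.48 in replicates 1 to 4, so it was lowest in replicate 2. The brightest was lowest in replicates 1 and 3, at 11.50 in both. For the other 38 genes that were not flat, the values rest on 1 probe set each or on 1 beside a flat or dim one.

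Genes related to the ribosome were described by lists, as counts with no test. Proteins of the mitochondrial ribosome, which translates the genes of the mitochondrion, were lowest in replicate 1 in 13 of 43 genes that were not flat (30.2%, background 26.8%). They were highest in replicate 3 in 23 (53.5%, background 28.5%). Above the background level lay 35 of the 71 measured. Of all named genes above that level that were not flat, 36.9% were highest in replicate 3. Of 11 other genes known for a terminal oligopyrimidine tract, none of them flat, 3 were lowest in replicate 1 (27.3%, background 26.8%) and 8 were below their own mean there (72.7%, background 49.8%). Their median deviation in replicate 1 was -0.034, and -0.01 over all 14 measured. Among them the subunit Eif3h of initiation factor 3 had 9.99, 10.16, 10.13 and 10.22, low in replicate 1 as in the ribosomal genes. The elongation factors Eef1a1, at 12.08, 12.04, 12.00 and 11.99, and Eef2, at 12.13, 12.05, 12.06 and 12.10, were highest in replicate 1. Genes of ribosome assembly were lowest in replicate 1 in 2 of 18 genes that were not flat (11.1%, background 26.8%), and 6 of 30 lay above the background level (20%, background 23.1%). None of 5 S6 kinase genes lay above it (background 23.1%).

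RNA quality measures and cell type markers also differed between the rats, some of them with replicate 1 at an extreme, and their part in the result was not tested. The 3′ minus 5′ difference of the actin control probe sets, a measure of RNA quality, was 0.85, 0.63, 0.54 and 0.66 log2 units in replicates 1 to 4. For Gapdh it was 0.48, 0.52, 0.54 and 0.54, lowest in replicate 1. Of 10 listed Kupffer cell markers, 6 were measured and all were above background. Their median deviation was -0.14 in replicate 1, 0.09 in replicate 2, 0.04 in replicate 3 and -0.02 in replicate 4, and their summed signal was 12.38, 12.69, 12.56 and 12.46 in log2 units. Of 8 measured hepatocyte markers all were above background, as the label liver requires, with a summed signal of 16.76, 16.81, 16.82 and 16.81. For 3 measured blood markers, of which only 1 was above background, it was 12.13, 11.58, 11.90 and 11.38, highest in replicate 1. Markers of stellate cells and fibroblasts, of which 2 of 8 measured were above background, set replicate 3 apart, with a summed signal of 12.06, 12.30, 11.72 and 12.31. Their median deviations were -0.01, 0.14, -0.24 and 0.08 in replicates 1 to 4. Markers of sinusoidal endothelial cells, of which 2 of 6 measured were above background, had a summed signal of 11.28, 11.31, 11.37 and 11.37, lowest in replicate 1. Markers of bile duct cells, lymphocytes and neutrophils, and genes of cell division, were below the background level throughout.

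Without replicate 1, the ribosomal genes were most often lowest in replicate 3. Of 39 ribosomal genes, 7 were then lowest in replicate 2 (background 34.6%), 21 in replicate 3 (31%) and 11 in replicate 4 (34.4%). Their median deviations were small, at 0.01, -0.03 and 0.00 in replicates 2, 3 and 4. With all rats used, the deviation in replicate 1 and the mean signal had a correlation of r = -0.38 across the 39 genes, a description only, since they share 4 arrays. Of 24 genes that were not flat and held a run of at least 8 pyrimidines anywhere within 30 bases of the start, 18 were lowest in replicate 1, with a median deviation of -0.07. Of 10 genes with a shorter run, 6 were, with a median deviation of -0.06. The share over the 39 genes was 71.8%, and the background was 26.8% of all named genes that were not flat. These groups were not tested against each other.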

How the data were processed

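The deposited values are log2 signals per probe set, 1 array per rat. The submitters' processing notes list GCRMA, RMA, affy 1.12.2 and R 2.4.1. They do not say which method made the values, and this was not settled here. The median of each array was 8.11, so the arrays share a median. This does not show a common scale among bright genes. The brightest 10% of other genes were offset by 0.002, -0.045, 0.044 and -0.001 log2 units in replicates 1 to 4. Per the scanner settings each array had its own fluidics module, so no batch could be fitted. Nothing in the labels describes the 4 livers beyond separate samples, and their number limits the precision.

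Of 15923 probe sets, 12789 carried 1 symbol, 312 several and 2822 none in the platform annotation, which can be old. Of the 44 genes, 42 kept their symbol by gene number in GRCr8. The genes, lists and roles were chosen with earlier results of these data known. The naming rule took the 4 highest and 4 lowest means per subunit, the 4 largest and 4 smallest SDs, stalk proteins, Rpsa, 8 genes by role and paralogue pairs. Other genes were named after their values were seen.

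Ranks and deviations were computed with Python 3.11.15, numpy 2.4.6, pandas 2.3.3 and scipy 1.17.1. The difference shared by 2 probe sets was fitted with limma 3.58.1 in R 4.3.3 (probe set and rat terms, robust trended prior, Benjamini-Hochberg adjustment over 613 genes). On simulated data for these 613 genes it recovered 49.3%, 80.6% and 93.9% of genes given rat effects with an SD of 2, 4 and 8 times the median residual SD, with 4 false calls. Alternatives covered the probe set, scaling, background level, prior, flat genes and each rat left out.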

Additional observations from a re-analysis of the deposited data

Results flagged for a closer look

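The 4 values of each of 46 quantities were searched for a rat set apart by a gap that fills most of the range, which happens by chance in about 5% of such sets. This picked out 4 quantities, some with a very small range. Rps9 was at 11.33 in replicate 1 and between 11.46 and 11.48 in the other rats. Rpl5 was at 11.47 in replicate 4 and at 11.42 in the others, and Rpl41 was at 11.86 in replicate 4 and at 11.83 in the others. The median deviation of the small subunit genes was -0.051 in replicate 1 and between 0.01 and 0.02 in the others.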

How the results depend on the processing

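The count of ribosomal genes above background was 40 of 44 with any 1 rat left out and 39 of 42 without probe sets of shared-sequence suffixes. It was 41 of 44 at the 90th percentile or without Myh1 in the background list, and 35 of 44 at the 98th percentile. The median SD ran from 0.035 to 0.055 with 1 rat left out, lowest without replicate 1, and moved by less than 1.5 times elsewhere. Genes lowest in replicate 1 were 27 of 37 or 28 of 40 with other probe sets, and 28 of 39 with all arrays centred on their median. In the main setting the background was 26.8%. With 1 other rat left out they were 29 to 32 of 39. Only 3 rats are compared there, so these counts are not comparable with the others, and their background is not given. They were 26 of 35 with a range of at least 0.05, against 26.4% of other genes, and 41 of 61 with probe sets of several symbols. With arrays centred on the brightest 10% of other genes they were 20 of 39, against 21.3% of other genes, and the median deviation was 0.083 in replicate 2 and -0.044 in replicate 3. That setting, the one with several symbols and all settings for the count of lowest genes were chosen after seeing the data. The F test called 22 to 39 genes with 1 rat left out, fewest without replicate 3, and 0 of 1870 genes with flat genes, and the cause was not tested. Rpsa did not pass in any setting that tested it (adjusted p from 0.691 to 0.991, limma). No paired analysis was possible because there was 1 group of 4 rats.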
